A study of Caenorhabditis elegans with 3 samples.

Results

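Noncoding RNA genes other than the piRNA genes (small RNAs of the germline, named 21ur-) were followed through both deposited peak tables of the mark H3K4me3 in Caenorhabditis elegans. They were taken as every table entry with a RefSeq RNA identifier (NR_) whose symbol does not begin with 21ur-. This gave 14 of the 95 peak intervals and 12 genes in the F11 table, and 121 of the 639 peak intervals and 158 genes in the F14' table. Together they are 166 genes, of which 4 are listed in both tables. Trimethylation of lysine 4 on histone H3 was mapped by chromatin immunoprecipitation and sequencing in whole wild-type nematodes fed Escherichia coli OP50 at 20 °C. F11 nematodes had been exposed to sulfomethoxazole (SMX, a sulfonamide antibiotic) in K-medium on growth plates for 11 generations of 6 days each. The F14' nematodes are labelled as its first non-exposed descendants, kept on K-medium alone, and the control was also raised on K-medium alone. With 1 library a group, nothing here is checked by replicates and no p-value was computed; confidence intervals cover only counting error. The labels describe both tables as made against the control, which was not analysed by itself here, and the generations between F11 and F14' are not described. Of the noncoding RNA genes with an NR_ identifier in the RefSeq table, 12 of 8812 were listed with a peak through an NR_ entry in F11 (0.136%, exact 95% binomial interval 0.0704 to 0.238%). In F14' these were 153 of 8812 (1.74%, 1.47 to 2.03%). Genes that share a peak were counted separately, and 25 of the 121 F14' intervals list 2 or more noncoding genes. Intervals on F14' gene shares are therefore too narrow. Counting entries of any kind, as the share of all genes does, 13 of 9448 noncoding genes (0.138%) were listed in F11, against 0.19% of all genes, and 156 of 9448 (1.65%) in F14', against 1.78% of all genes. In both tables the noncoding share was near that of all genes, which include 15363 piRNA genes with lower shares (0.0456% in F11, 0.905% in F14'). It was below that of protein-coding genes, 0.325% (0.251 to 0.414%) in F11 and 2.55% (2.34 to 2.78%) in F14'.

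H3K4me3 is placed around the starts of transcribed genes, in C. elegans by methyltransferase complexes related to those of yeast and mammals. Noncoding RNA genes differ in how they are transcribed. MicroRNA and long noncoding RNA genes use RNA polymerase II, the enzyme of protein-coding genes, whereas 5S ribosomal RNA (rRNA) and transfer RNA genes use RNA polymerase III. Small nucleolar RNAs (snoRNAs), which guide the modification of other RNAs, often lie inside or beside other genes. A peak beside a short noncoding gene can therefore also belong to the start of a neighbour, and the mark carries no strand.

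The authors' values for a peak are its tag count, its fold over the caller's background, and a score, which is the caller's p on a scale of -10 times its base-10 logarithm. Tags in peaks ran from 346 to 31515 in F11 and from 280 to 44316 in F14', and the total depth of the libraries is unknown. The F11 table has a false discovery rate (FDR) and the F14' table has none, so folds are read within a table and are not compared between them. The annotation also differs. In F11, 39 of 40 promoter peaks carry 1 table entry, and of 60 starts known from either table within 2 kb of a peak centre 20 were not listed. Of these 20, 15 were starts of the noncoding C31G12 genes at 1 peak on chromosome V, so most of the gap comes from a single locus. In F14', 257 of 384 promoter peaks carry 1 entry, and 2 of 626 starts known from either table were not listed. The known starts come mostly from the F14' table itself, which has 923 identifiers against 100 in F11. The low F14' count is therefore largely fixed in advance and does not show that its listing is complete. The numbers of noncoding genes in the tables are therefore not read as a change between generations.

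The F11 intervals of noncoding genes included those with the most tags per kb and the highest scores of that table, although not the highest folds. The interval assigned to C34E11.9, a noncoding gene of unknown role, lay on chromosome X (11785187 to 11789965, ce10). It held 31515 tags, or 6594.5 tags per kb, with a fold of 4.39 and a score of 3100, and it ranked 1 of 95 in both tags per kb and score and 9 in fold, which reached 8.46 at protein-coding intervals. Its FDR in the authors' deposited table was 0%, whereas the other 13 noncoding intervals had an FDR of 100%. The FDR over all 95 F11 peaks is not given here, so these values are not read as a trait of noncoding intervals. The authors' annotation calls it intergenic, with its centre 4102 bp downstream of the C34E11.9 start. That gene lies between Y102F5A.1 and rsd-3, a gene needed for the spreading of RNA interference.

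Second in tags per kb and in score was the interval of anr-53, an antisense RNA gene, on chromosome III (1299258 to 1303483). It held 22629 tags (5354.7 per kb; fold 3.71) and was centred 3003 bp upstream of the anr-53 start. The gene sits between the F-box genes fbxa-36 and fbxa-75, members of a large family of ubiquitin ligase adaptors. Another strong interval, on chromosome X (1751834 to 1755524; 6126 tags, 1659.7 per kb, fold 3.38), was listed with the long intervening noncoding gene linc-64 and with Y75D11A.1 and ZC190.9. The linc-64 start was the farther one, 11548 bp from the peak centre against 2732 bp for Y75D11A.1. These 3 intervals were denser than any other noncoding interval of F11. At each of them a start listed in either table lay nearer to the peak centre than the noncoding one.

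The other 11 F11 intervals had between 262 and 350 tags per kb. Both intervals of ZK993.4, which lies between ZK993.5 and the homeobox gene ceh-45, were upstream of its start on chromosome I. The farther one, centred 9072 bp from the start, had 398 tags and a fold of 3.65, and the nearer one, at 3395 bp, had 528 tags and a fold of 2.94. Promoter intervals were those of CE7X_3.3 (fold 2.1, 455 tags), C24H11.13 (2.02, 510 tags), F58A4.22 (1.82, 462 tags), linc-113 (1.77, 589 tags), Y53F4B.45 (1.73, 357 tags) and W02B8.9 (1.65, 553 tags). Of these, linc-113 was centred nearest to its start, at 170 bp, with the summit 1 bp upstream of it (-1 bp). It lies between ceh-6, which encodes a POU homeobox factor, and sec-12. F58A4.22 lies inside the C-type lectin gene clec-161, and Y53F4B.45 inside trip-4. C24H11.13 neighbours the potassium channel gene twk-39, and W02B8.9 neighbours citk-1. The remaining ones were linc-98 (1.95, 750 tags, upstream), a further linc-64 interval (1.80, 484 tags) and C36C9.10 (1.79, 404 tags), which neighbours the F-box gene fbxa-170 and the germ granule gene meg-4. The noncoding intervals of F11 had a median fold of 1.98, against 2.02 for the 74 intervals listed with protein-coding genes only. Their median was 303 tags per kb, against 321 in the coding set.

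**Figure D1:**
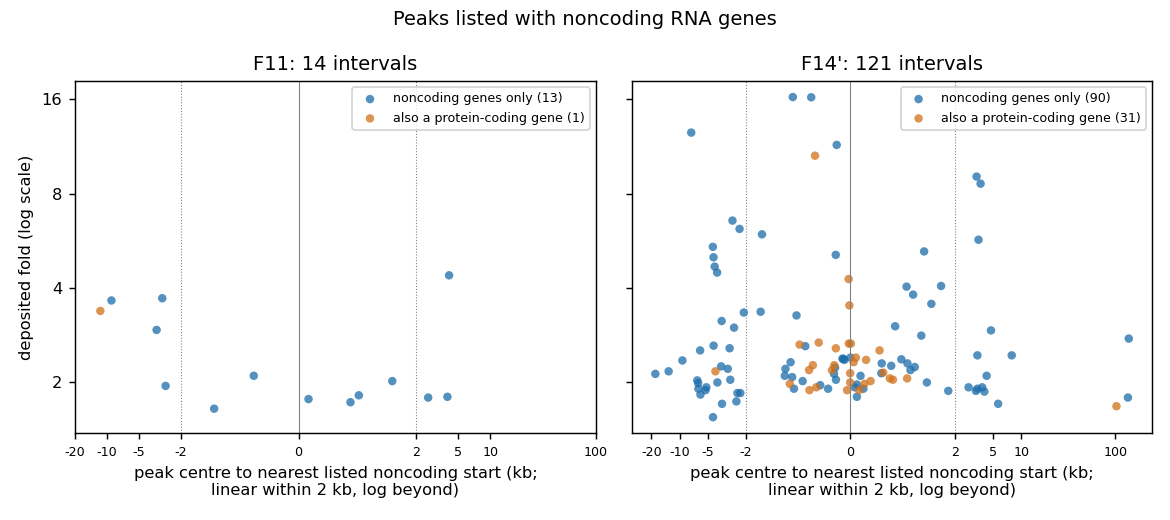
Deposited fold (vertical axis, log scale) against the distance from the peak centre to the nearest listed noncoding start (horizontal axis, kb, linear within 2 kb and log beyond; negative is upstream), for 14 F11 and 121 F14' intervals. Each point is 1 interval, orange where the table also lists a protein-coding gene, and the dotted lines mark the 2 kb limit of the promoter class. All F11 folds lie between 1.65 and 4.39, and the F14' folds reach 16.24.

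In the F14' table microRNA genes, which encode short RNAs that repress target messengers, were led by mir-249. Its promoter interval (chromosome X, 3006776 to 3008479) held 3349 tags with a fold of 16.24 and a score of 3100, and its centre lay 1101 bp upstream of the start. This was the highest fold of any noncoding interval and rank 11 of all 639. The interval of mir-246, a microRNA reported to affect lifespan in this worm, lay on chromosome IV (10942980 to 10944672; 3732 tags, fold 8.60). It is an intergenic peak, with its centre 3714 bp downstream of the listed start. The other 4 microRNA genes had folds between 1.88 and 2.27. The highest of these was mir-5595 (555 tags; fold 2.27), which lies inside the chromatin remodelling gene nurf-1. Then came mir-266 (1247 tags; 2.24), next to the forkhead gene fkh-2, mir-4933 (504 tags; 2.15) and mir-257 (779 tags; 1.88). The nurf-1 start was listed at the mir-5595 peak. It lay 142 bp from the peak centre, against 310 bp for mir-5595, and was also nearer to the summit. The start of the protein-coding gene W09H1.1 was listed at the mir-4933 peak. It lay 559 bp from the centre, against 626 bp for mir-4933, whereas the summit lay nearer to mir-4933. In all, 6 of 260 microRNA genes of the RefSeq table were listed with a peak (2.31%, 0.851 to 4.95%), near the 1.78% of all genes. In F11 it was 0 of 260, which allows a share of up to 1.15% (3 genes of the total). That limit lies above the 0.19% of all genes in F11, so the 0 does not set microRNA genes apart.

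Ribosomal RNA was represented by 5S genes alone. Of the 16 rrn-4 genes in the RefSeq table, 13 were listed, and they shared 3 F14' intervals on chromosome V. The interval at 17114960 to 17116754 held 2037 tags (1134.8 per kb, fold 3.52), and 13 rrn-4 names were listed there, with starts from which the peak centre lay between 21 bp upstream and 140 bp downstream. The protein-coding gene ZK218.8 and the noncoding gene ZK218.23 were listed there too. The interval at 17428171 to 17429465 held 490 tags (378 per kb, fold 4.27) with the same number of rrn-4 names and T27C5.10. The third, at 17421629 to 17423304 (571 tags, fold 1.99), was centred 6387 bp or more from any of them. Copies of 5S rRNA are near-identical, the table lists the same starts under many names, and reads from the copies cannot be told apart. So 13 names stand for at most 3 places where the mark was measured.

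Long noncoding RNA genes had low folds in F14'. The interval of linc-2 (386 tags, fold 2.00) was centred 6 bp from its start and was shared with pcf-11, a gene of messenger RNA 3′ end formation. Those of linc-98 (445 tags, 1.91), linc-158 (735 tags, 1.93) and linc-85 (895 tags, 1.55) followed, and the fold of linc-85 was the lowest of the whole table. A single antisense RNA gene was listed, anr-47, on chromosome IV (3205846 to 3210092). Its interval held 9934 tags (2339.1 per kb, fold 4.68) and was centred 4265 bp upstream of the start. Of the long noncoding genes 3 of 194 were listed through an NR_ entry in F11 (1.55%, 0.32 to 4.45%) and 4 of 194 in F14' (2.06%, 0.565 to 5.19%). Through any entry these were 4 of 194 in F11 (2.06%) and 6 of 194 in F14' (3.09%, 1.14 to 6.61%), against 0.19 and 1.78% of all genes. Of the 3 F11 genes listed through an NR_ entry, linc-113 alone had a promoter peak.

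Of 346 snoRNA genes 8 had a listed peak in F14' (2.31%, 1.0 to 4.5%), near the 1.78% of all genes. In F11 it was 0, which allows a share of up to 0.867%, above the 0.19% of all genes there. The interval of Y119C1B.13 (chromosome I, 4539957 to 4549018) held 25661 tags, the most of any noncoding interval in F14', with a fold of 5.41, and was centred 4460 bp upstream. C23G10.12 (541 tags, fold 4.04) and ZK484.11 (578 tags, fold 2.36) were promoter intervals, as were those of W06H8.17 (328 tags, 2.19) and F26D10.24 (387 tags, 1.89). F26D10.24 lies inside hsp-1, an Hsp70-family chaperone gene, whose start was listed at the same interval. Y75B7AL.9 (426 tags, 2.44), F37A8.7 (447 tags, 1.91) and both intervals of F48F5.7 (767 tags, 2.44; 1823 tags, 1.71) lay over 3 kb from the start. The 1 small nuclear RNA gene listed, C41G6.17, had 580 tags and a fold of 2.1. Transfer RNA genes carry no NR_ identifier in the RefSeq table, so the rule could not find them.

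**Figure D2:**
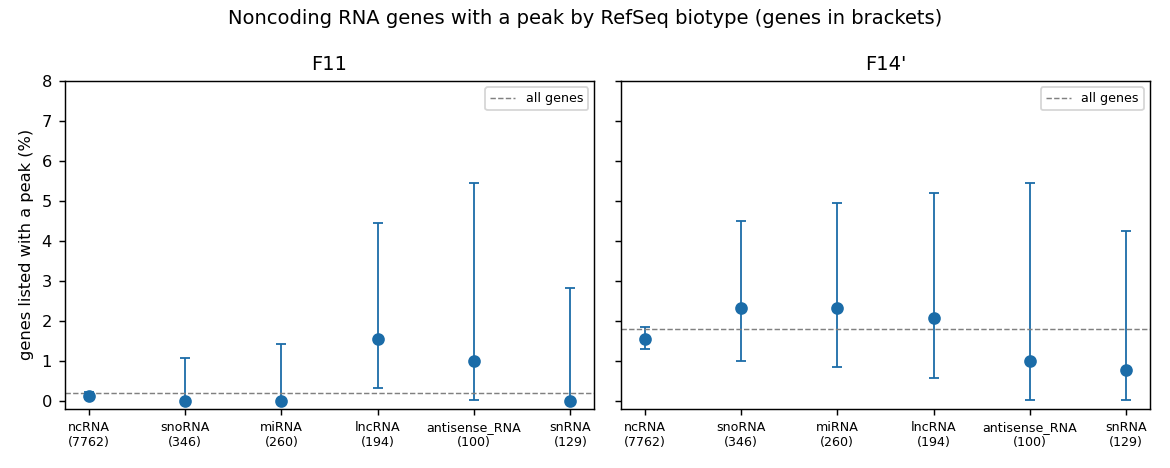
Share of noncoding RNA genes with an NR_ identifier that are listed with a peak through an NR_ entry (vertical axis, %), by RefSeq biotype, in F11 (left) and F14' (right); bars are exact 95% binomial intervals and the dashed line is the share of all genes, through any entry. The F14' intervals all hold the 1.78% of all genes, and in F11 that of lncRNA (0.32 to 4.45%) lies above the 0.19% of all genes. The F11 lncRNA share rests on 3 genes, of which linc-113 alone has a promoter peak. Genes of rRNA are not plotted.

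Most members carry a sequence-style name, a clone name with a number, and have no described role. In F14' they were 132 genes in 108 intervals, with folds from 1.68 to 16.21 and a median of 2.25. The highest interval (chromosome X, 5541740 to 5542891; 1031 tags, fold 16.21) lay among C54G7.5, C54G7.6, C54G7.7, C54G7.10 and C54G7.17. Their starts lay between 749 and 1330 bp from the peak centre, and no protein-coding gene was listed. M02G9.5 (3505 tags, fold 12.51) lies inside appg-1, and its peak was centred 7563 bp upstream. Y51B9A.13 (1915 tags, 10.56) lies inside Y51B9A.5, whose start was listed at the same interval. Y70D2A.6, near hex-5, had the densest noncoding interval of the table, with 8799 tags at 3819.0 per kb and a fold of 9.06, centred 3370 bp downstream.

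Further sequence-named intervals with a fold of at least 5 were those of Y97E10AL.5 (4230 tags, 6.56), K01F9.6 (5273 tags, 6.17), Y106G6D.10 (2980 tags, 5.93), C53C11.7 (474 tags, 5.70), F19B6.9 (7077 tags, 5.23), C23H5.10 (670 tags, 5.10) and F08B6.7 (3416 tags, 5.01). The placement of C23H5.10 is doubtful, as given below. Y95D11A.4 was dense at a lower fold, with 18526 tags (2311.4 per kb, fold 3.14). Counting all noncoding classes, 15 of 121 F14' intervals reached a fold of 5 (12.4%, 7.11 to 19.6%), against 75 of the 470 protein-coding ones and 15.2% of all peaks in that table. In F11 none of the 14 did, against 4.21% of all peaks there. The median fold was 2.24 for noncoding intervals, 2.32 for the protein-coding set and 2.36 for 51 piRNA intervals. Their medians were 296, 303 and 304 tags per kb. The quartiles of the noncoding folds were 1.98 and 2.82.

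By class, 73 of 121 noncoding intervals of F14' were promoters (60.3%, 51 to 69.1%), against 271 of 470 protein-coding intervals (57.7%, 53.0 to 62.2%) and 43 of 51 piRNA intervals (84.3%, 71.4 to 93.0%). Upstream intervals made up 26.4% of the noncoding set, against 19.6% of the coding set. Intergenic ones made up 10.7%, against 15.1%, and none was classed as exon. In F11 6 of 14 were promoters (42.9%, 17.7 to 71.1%), against 31 of 74 coding intervals (41.9%). The median distance from the centre to the nearest noncoding start was 1158 bp in F14' and 2697.5 bp in F11. Up to 14 noncoding genes are listed at 1 interval in F14', and the part of this in the shorter distance was not tested.

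**Figure D3:**
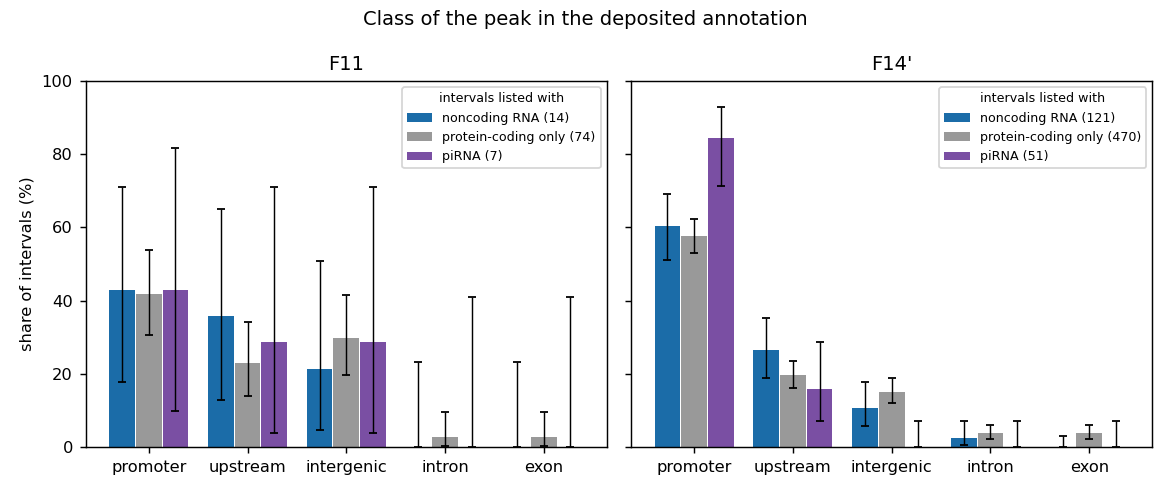
Share of intervals (vertical axis, %) in each class of the deposited annotation, for intervals listed with noncoding RNA genes, with protein-coding genes only, and with piRNA genes, in F11 (left) and F14' (right). Bars are shares with exact 95% binomial intervals; the noncoding and protein-coding promoter shares are 42.9 and 41.9% in F11 and 60.3 and 57.7% in F14', and the piRNA share of 84.3% in F14' is higher.

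Protein-coding starts were listed at 31 of the 121 noncoding intervals of F14' (25.6%, 18.1 to 34.4%) and at 1 of 14 in F11. Of the 31, 29 were promoters (93.5%), against 44 of the 90 intervals with no coding gene (48.9%). The same 2 kb limit that defines the promoter class also bears on which starts are listed at a peak. The part of the annotation in that contrast was not tested, and the contrast is not read as a property of shared peaks. The 31 had between 262 and 1229.1 tags per kb, the highest being that of Y51B9A.13. The 28 without Y51B9A.13 and the 5S genes had between 262 and 356. Among the coding genes were ran-1, a nuclear transport GTPase gene with the noncoding K01G5.11 and K01G5.12, rpt-2, a proteasome ATPase gene with F29G9.10, and crt-1, the calreticulin gene, with Y38A10A.8 and Y38A10A.10. Others were ftt-2, a 14-3-3 protein gene, with F52D10.11 and F52D10.12, lgg-1, an autophagy gene, with H06I04.12 and H06I04.13, and hmg-1.1, with Y48B6A.18, Y48B6A.21 and Y48B6A.23. The RefSeq table places H06I04.12 and H06I04.13 on chromosome III, whereas the interval with lgg-1 is on chromosome II. The peak centre lay nearer to the noncoding start at 14 of the 31 and to the coding start, ties included, at 17. The summit lay nearer to the noncoding start at 11 and to the coding start at 20. Median distances from the centre were 384 bp to the noncoding and 386 bp to the coding start. At 3 of the 31, 1 gene has entries of both kinds, namely fbxa-218, Y116F11B.9 and rpl-1. Which start a shared peak belongs to cannot be told apart.

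A few members are not noncoding genes in the RefSeq table. It calls 4 of the 158 F14' members protein-coding, namely rpl-1 (a ribosomal protein gene, there rpl-10a), fbxa-218, Y116F11B.9 and Y71A12B.10, and C32H11.7 a pseudogene. Placement was doubtful for others. In F14', 16 entries of 12 genes at 11 intervals lay on another chromosome than in the RefSeq table. The interval on chromosome IV at 14778731 to 14781956 (10119 tags, fold 11.43) lists Y47G6A.34 and Y6B3B.14, which RefSeq places on chromosome I, together with a gene of the Y57G11C clone on chromosome IV, and all 3 are 52 bp long there. Entries of 6 genes at 10 intervals spanned over 100 kb. The longest span was that of C23H5.10, 356 bp long in RefSeq and listed across 779705 bp of chromosome IV. Y51F10.12, 172 bp long in RefSeq and on its chromosome I, was listed across 433185 bp of chromosome II. Y105E8A.41 and Y105E8A.43, each 95 bp, were listed across 287768 bp of it. All 3 noncoding intron intervals of F14' came from such spans, as with T21H3.9 on chromosome V (628 tags, 135665 bp from its listed start), a gene of 88 bp. No F11 member had either problem.

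The C31G12 locus on chromosome V shows how names multiply. Its 11 noncoding genes of 54 to 66 bp lie inside the protein-coding gene C31G12.4. At 1 F14' interval (18174189 to 18176939; 999 tags, fold 2.40) they make up 25 entries at 15 starts. The F11 interval at the same place (18174280 to 18176544; 750 tags, fold 1.95) lists linc-98 alone, 2793 bp away, though all 11 genes have starts within 2 kb of its centre. They were the only member genes left out in this way in F11. In F14', linc-98 is instead listed at a neighbouring interval that does not overlap the F11 one.

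Across the tables, 8 of the 14 F11 intervals shared at least 1 bp with an F14' peak (57.1%, 28.9 to 82.3%), against 42 of 74 protein-coding intervals (56.8%, 44.7 to 68.2%). Seen from F14', 6 of 121 noncoding intervals (4.96%, 1.84 to 10.5%) overlapped an F11 peak, against 46 of 470 coding ones (9.79%). Over all peaks the overlapping shares were 53 of 95 in F11 (55.8%) and 54 of 639 in F14' (8.45%). The interval of the F14' noncoding share holds both the coding value and that of all peaks. Per the labels both tables were made against the control, so these shares are a description. The same noncoding gene was listed on both sides at 4 pairs, those of CE7X_3.3, Y53F4B.45 and both ZK993.4 intervals. Tags per kb at them were 292 in F11 and 282 in F14' for CE7X_3.3, and 292 in F11 and 311 in F14' for Y53F4B.45. At ZK993.4 they were 350 in F11 and 324 in F14' for the farther interval, and 332 in F11 and 408 in F14' for the nearer one. The paired ZK993.4 intervals differ in length, so these values average over unlike stretches. The farther one has 1137 bp in F11 and 1832 bp in F14', and the nearer one 1592 and 3976 bp. Tags per kb were higher in F11 at 2 of these 4 pairs.

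The F11 noncoding intervals with the most tags per kb were listed under other genes in F14'. The C34E11.9 region was assigned in F14' to Y102F5A.1, whose start lay 3307 bp from the F14' peak centre. There F11 had 31515 tags (exact Poisson 95% interval 31168 to 31865) and F14' had 24557 (24251 to 24866). The anr-53 region was assigned to fbxa-75 in F14', at 2099 bp, with 22629 tags in F11 and 24119 in F14'. At linc-64, F14' lists Y75D11A.1 and ZC190.9 without the noncoding gene, and F11 had 6126 tags against 9931 in F14'. The reverse held at nlp-38, a neuropeptide gene, whose F11 region is listed in F14' with C01A2.8 and ZK402.6. The F11 to F14' ratios of tags per kb were 1.30 at C34E11.9, 1.07 at anr-53 and 0.638 at linc-64, beside a median of 0.972 over all 54 overlapping pairs. Over 9 pairs with a noncoding gene on either side the ratios ran from 0.638 to 1.30 with a median of 0.937, and over the other 45 pairs from 0.495 to 1.30 with a median of 0.978.

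**Figure D4:**
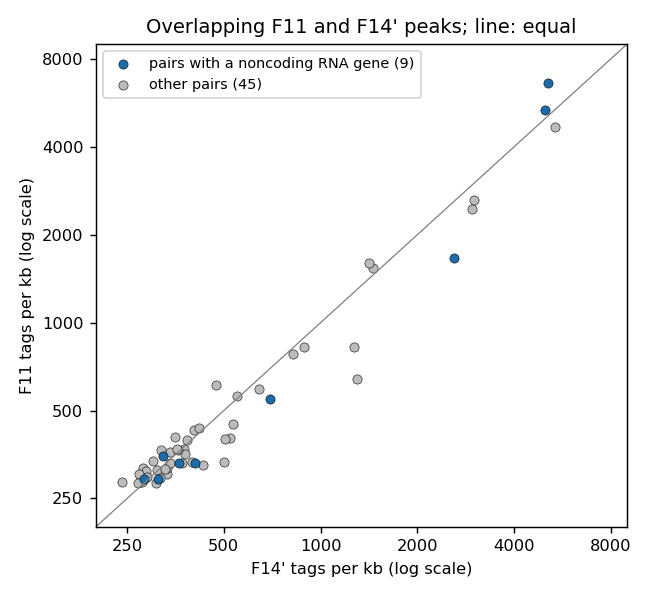
Tags per kb of overlapping peaks in F11 (vertical axis) and F14' (horizontal axis), both on log scales; each point is 1 pair, blue for 9 pairs with a noncoding RNA gene in either table and grey for 45 others, and the line marks equal values. The noncoding pairs lie along the line with the others, the lowest ratio being 0.638 at linc-64 and the highest 1.30 at C34E11.9.

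Noncoding genes are frequent on chromosome X, which holds 30.3% of those with an NR_ identifier and 13.7% of protein-coding genes. In F14', 19 of 121 noncoding intervals lay there (15.7%, 9.73 to 23.4%), against 37 of 470 coding intervals (7.87%, 5.6 to 10.7%). Counted by gene, 25 of 2674 noncoding genes on X (0.935%, 0.606 to 1.38%) and 116 of 6138 on autosomes (1.89%, 1.56 to 2.26%) had a listed peak on the chromosome that RefSeq gives. For protein-coding genes these were 33 of 2730 (1.21%) and 476 of 17241 (2.76%). Peaks of F14' were thus sparser on X in both kinds of gene. Noncoding genes that share a peak, such as the rrn-4 and C31G12 genes on chromosome V, were counted separately in these shares. In F11, 5 of 14 noncoding intervals lay on X, against 4 of 74 coding ones, and 4 of 2674 noncoding genes on X (0.15%) had a listed peak beside 8 of 6138 on autosomes (0.13%). The F11 protein-coding shares were 4 of 2730 on X (0.147%, 0.0399 to 0.375%) and 61 of 17241 on autosomes (0.354%, 0.271 to 0.454%). Of 108 F14' members of the ncRNA biotype whose chromosome matches, 47 lie inside a protein-coding gene (43.5%), against 42.4% of all 7762 such genes. The 47 include the 11 C31G12 genes, which lie inside C31G12.4 and were listed together at the same peak. These are therefore not independent counts.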

How the data were processed

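H3K4me3 peaks of 1 F11 and 1 F14' library were used. Per the submitters' processing notes, Bowtie2 2.1.0, MACS 1.4.0rc2 and the build ce10 were used. Each library has its own peak table, made against the control per the labels. The authors deposited, per the file headers, tag counts without normalization, a fold (a ratio over the caller's background), a score of -10 times the base-10 logarithm of the caller's p, and, for F11, an FDR in percent. The deposited distance equals that from the peak centre to the listed start within 0.5 bp.

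Table entries were collapsed to intervals, and tags were divided by interval length. Overlap required 1 bp. Gene names and biotypes came from a RefSeq table of assembly WBcel235, another build, which gave names, chromosomes, gene lengths and gene order and no coordinate. Of 12 F11 and 160 F14' member identifiers all matched, 2 of them by symbol. The placement of a gene was called doubtful where its chromosome differed or its listed span was over 10 times its RefSeq length. Shares carry exact Clopper-Pearson 95% intervals and tags exact Poisson ones. The limit beside a share of 0 is 3 counts of the total. The code was tested on simulated intervals. No p-value, random list or set test was computed, since each group has 1 library.

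The members, lists and comparisons were chosen with earlier results of these data known. Named were every F11 member, and in F14' members of the rrn-, linc-, anr- and mir- classes. Of the rest, the 10 intervals with the highest fold, tags per kb and score and those that overlap an F11 peak were named. Any further gene in the text was picked with its values in view. The planned promoter motif search was not run, since no promoter sequences were used here. Scripts ran under Python 3.11.15 with pandas 2.3.3, numpy 2.4.6, matplotlib 3.10.9 and scipy 1.17.1.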

Additional observations from a re-analysis of the deposited data

How the results depend on the processing

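Of the values recomputed under other settings, 73 stayed within the 95% interval of the value reported (counts within 1.5 times), which is wide for the 14 F11 intervals, and 29 moved further. The 73 include values that could not move, as given below, so they are not read as a measure of stability. Stricter limits leave fewer peaks by construction. With a score of at least 100, F11 kept 5 intervals and 4 genes with a promoter share of 0%, a median fold of 3.65, a median of 1659.7 tags per kb and 20.0% listed with a protein-coding gene, and F14' kept 37 intervals and 70 genes with a median fold of 4.06, a median of 648 tags per kb and 16.2% listed with a protein-coding gene. With a fold of at least 2, F11 kept 7 intervals and 6 genes with 85.7% overlapping an F14' peak, a median fold of 3.38 and a coding share of 14.3%, and F14' had a median fold of 2.4 and 311 tags per kb. With members at the nearest listed start only, the share listed with a coding gene was 0% in F11 and 15.7% in F14'. That setting kept 10 F11 intervals, without those of C34E11.9, anr-53 and the denser linc-64 one. Their median was 292 tags per kb, and 40% of them overlapped an F14' peak. Within 2 kb of the peak centre, F11 had 6 intervals and 6 genes, 33.3% of the F11 ones overlapped an F14' peak, F14' had 73 intervals, both promoter shares were 100%, and the coding shares were 0% in F11 and 39.7% in F14'. With an FDR of at most 5%, F11 kept 1 interval and 1 gene, that of C34E11.9, with a promoter share of 0%, a fold of 4.39, 6594.5 tags per kb, a coding share of 0% and an overlap of 100%. The cause of the other shifts was not tested. No symbol was empty, so keeping or dropping such entries changed nothing. Settings added after seeing the data left out doubtful placements and members that RefSeq calls protein-coding. No F11 member was of either kind, so the F11 values could not move under them. No paired analysis was possible because each group has 1 library. The unknown depth of each library limits every comparison between the tables.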

Other observations

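Several F14' members lie inside or beside developmental genes, a set chosen after the values were seen. F46F3.22 lies inside the homeobox gene ceh-27 and was 6 bp from the centre of a promoter peak with 607 tags (304 per kb, fold 2.14). The ceh-27 start was listed at the same peak, and the summit lay 190 bp from it and 570 bp from F46F3.22. C37E2.8 and C37E2.9 lie inside ceh-37, an Otx-family homeobox gene, in a peak with 526 tags (fold 1.98). The ceh-37 start was listed at that peak too. F14F3.14 and F14F3.17 lie inside vab-3, the Pax6 gene (560 tags, fold 2.38), and no coding start was listed at that peak. C38D4.11 lies inside pal-1, the caudal homologue (485 tags, fold 1.91). Inside long genes for muscle and sensory proteins, F12F3.6 in the titin-related ttn-1 had a peak with 461 tags (fold 2.57), and K11C4.9 in the ryanodine receptor gene unc-68 had 577 tags (fold 2.00). The F12F3.6 peak was centred 2962 bp upstream of its start, and that of K11C4.9 3992 bp upstream. ZK945.10, with a peak of 684 tags (fold 2.37), and ZK945.11 together with ZK945.14, with 437 tags (fold 1.96), lie inside lov-1, the polycystin gene of male mating. These peaks had between 265 and 304 tags per kb, near the median of 296 over all noncoding intervals of that table.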
